A study of Mus musculus with 38 samples.

Results

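Signaling from the cytokine receptor chain gp130 to the transcription factor Stat3 was followed in activated and non-activated granule cells of the dentate gyrus through 9 genes of the 23420 listed in each library. Members were chosen by gene symbol: the receptor chains Il6st (gp130) and Lifr, the Janus kinases Jak1, Jak2 and Tyk2, the transcription factors Stat3 and Stat5b, and the inhibitors Socs3 and Socs2. All 9 had a row in every library. The symbols had been selected on the log2 fold changes between dVenus+ and dVenus- cells within mice, so those values are described here without a test. The comparison of training histories and the other genes of the pathway were tested.

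The cells came from 19 adult male mice that all carried the Arc::dVenus transgene, bred into C57BL/6J, at an age of 8 to 12 weeks. In this line the promoter of the activity-regulated gene Arc drives a destabilized fluorescent protein, so that dVenus+ marks cells with recent Arc promoter activity rather than a permanent label. There were 12 fear conditioned mice (FC), which received 3 tones that ended with a foot shock, 4 no-shock mice (NS) taken through the same session with tones and no shock, and 3 home-cage mice (HC) that never entered the chamber. Cells of FC and NS mice were taken 24 h after the session. From each mouse 10 dVenus+ and 10 neighboring dVenus- cells were aspirated one by one from slices and pooled, which gave 1 library per cell type and mouse and 38 libraries in all.

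gp130 has no ligand specificity of its own. Some cytokines of the IL-6 family bring it together with a partner chain, such as the receptor for leukemia inhibitory factor encoded by Lifr. The Janus kinases bound to the receptor chains then phosphorylate Stat3, which enters the nucleus and binds DNA as a dimer. Socs3 and Socs2 are themselves induced by STAT proteins. Socs3 shuts the gp130 complex down, while Socs2 inhibits growth hormone and Stat5 signaling. In brain the gp130 pathway is known for astrocyte and microglial responses to injury and for its part in synaptic plasticity.

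The promoter sequences are shown because they place the members against both families of factors that the study bears on, the STAT proteins and the cAMP-responsive CREB proteins. Windows of 250 bases upstream of a transcription start (RefSeq, build GRCm38.p6) were matched for 8 of the 9 genes, in 10 windows, and Socs2 had no entry. Each was searched on both strands for the STAT dimer motif TTCNNNGAA and the full cAMP response element TGACGTCA, both of which read as themselves on the other strand. Of the members' windows, 1 held the STAT motif, that of Socs3, beginning 154 bases before the start, against 7.02% of 32851 windows of that length in the genome. The cAMP response element stood in 1 as well, that of Jak1, beginning 101 bases before the start, against 1.55% of all windows. The shorter form TGACG, which lies inside the full element, occurred in no other member and in 17.8% of all windows. Below are the parts of these windows upstream of any exon of the gene that reaches into the window, and for comparison that of Stat3, which held none of these letters. All are on the minus strand, written 5′ to 3′, with the motif in capitals. The stretch of Socs3 at chr11:117969452-117969616 lies in an intron of a longer transcript model, those of Jak1 at chr4:101265283-101265473 and of Stat3 at chr11:100939595-100939790 lie outside the transcript models of their genes. A match in letters describes the sequence and is no measurement of binding.
Jak1: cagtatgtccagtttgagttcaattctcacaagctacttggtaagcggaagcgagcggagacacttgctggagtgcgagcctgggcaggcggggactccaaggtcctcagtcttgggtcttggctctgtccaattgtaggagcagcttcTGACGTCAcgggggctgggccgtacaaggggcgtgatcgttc
Socs3: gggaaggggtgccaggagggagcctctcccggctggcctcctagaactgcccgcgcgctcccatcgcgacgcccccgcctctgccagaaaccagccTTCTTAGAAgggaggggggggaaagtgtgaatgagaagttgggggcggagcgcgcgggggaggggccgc
Stat3: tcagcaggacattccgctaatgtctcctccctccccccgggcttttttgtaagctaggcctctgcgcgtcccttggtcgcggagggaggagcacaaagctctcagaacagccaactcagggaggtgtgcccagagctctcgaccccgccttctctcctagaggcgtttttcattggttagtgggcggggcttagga

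Between 1352288 and 18394761 reads per library were counted on genes (median 8013005). Levels are given as normalized CPM, the usual counts per library size, here the reads on genes scaled by the TMM factors of edgeR over all 38 libraries. 3 counts, the limit that a count of 0 allows, corresponded to a level between 0.123 and 1.85, and this limit covers counting error only. As a check of the labels, Arc was higher with dVenus than without in 19 of 19 mice. Granule cell markers were detected in all groups, with a summed level of 8 genes between 81.3 and 831 in FC dVenus+ and between 566 and 1888 in FC dVenus- libraries, and markers of microglia and astrocytes were present as well. The FC mice came from 3 experiments of 6, 4 and 2 mice and the NS and HC mice from another, so levels of FC and of the other mice were not compared, because training and experiment cannot be told apart there. In pools of 10 cells, fewer cells with a transcript and less RNA per cell cannot be told apart either.

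Of the 9 genes, Jak1 and Lifr were found in all 38 libraries, Jak1 with 10 counts or more in 38 and Lifr in 37, which 5.61% and 8.41% of the 23420 genes reached. Stat3 had 10 counts or more in 27 libraries, Jak2 in 22, Il6st in 21 and Tyk2 in 19. The other 3 were rare, with 6 such libraries for Socs2, 5 for Stat5b and 1 for Socs3. The library that held most of a gene's counts had 99.5% of the 438 counts of Socs3, 65.9% of those of Stat5b and 40.3% of those of Socs2, against 8.95% for Jak1. A pool of 10 cells therefore carried between 2 and 8 of the 9 members at 10 counts or more, with a median of 5.

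Per kilobase of exon, Jak1 had the highest mean level over the 38 libraries, 19.5 ± 17.0 normalized CPM per kb (SD, n = 38), and it was the highest member in 32 of 38 libraries. Lifr followed with 3.54 ± 4.49, Stat3 with 3.04 ± 4.20, Tyk2 with 2.50 ± 4.28 and Jak2 with 1.61 ± 2.73 normalized CPM per kb. The mean levels per kb of Il6st, Socs3, Stat5b and Socs2 were 0.806, 0.663, 0.392 and 0.178. Each step in this order was smaller than the larger SD of both neighbors, including that from Jak1 to Lifr (15.9 against an SD of 17.0). The SD exceeded the mean in every member but Jak1.

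**Figure D1:**
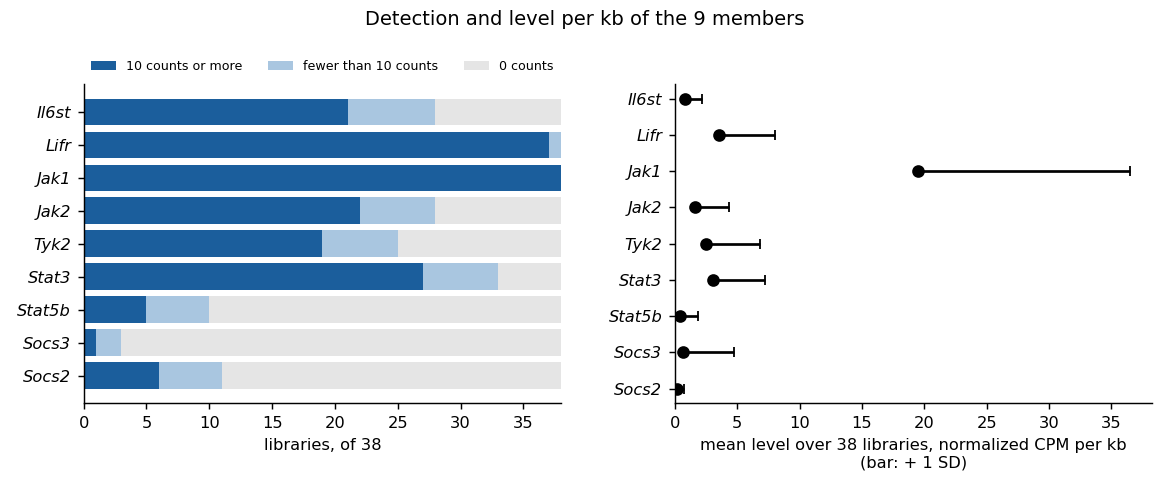
Left, the number of the 38 libraries in which each member had 10 counts or more, fewer counts, or 0 counts. Right, the mean level per kilobase of exon over the 38 libraries with a bar of 1 SD upward. Jak1 and Lifr were found in all 38 libraries, and Socs3 had 10 counts or more in 1.

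Il6st encodes gp130, the signaling chain shared by the IL-6 family of cytokines, and lies at chr13:112464070-112506860. In FC mice its level was 0 to 51.6 normalized CPM in dVenus+ (median 4.82) and 0 to 39.2 in dVenus- libraries (median 2.02). In NS mice 18, 19, 20 and 21 it was 4.50, 0, 0 and 9.54 in dVenus+ and 0.321, 10.2, 0 and 3.98 in dVenus- cells. In HC mice 15, 16 and 17 it was 59.3, 10.1 and 0 in dVenus+ and 4.20, 0 and 0 in dVenus- cells. The groups overlapped at each training history, and 10 of the 38 libraries were at 0. The dVenus+ library was the higher one in 7 of 12 FC, 2 of 4 NS and 2 of 3 HC mice, and the fitted log2 fold changes were 0.68 ± 1.15 (SE), 0.29 ± 1.26 and 4.00 ± 2.39.

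Lifr encodes the partner chain that binds leukemia inhibitory factor and lies at chr15:7090610-7197489. It was measured in every library, between 7.81 and 261 normalized CPM in FC dVenus+ (median 32.3) and between 2.01 and 71.4 in FC dVenus- libraries (median 26.5). NS mice 18 to 21 had 75.6, 21.7, 9.52 and 2.76 in dVenus+ and 10.9, 65.5, 12.0 and 26.7 in dVenus- cells. HC mice 15 to 17 had 160, 14.0 and 8.92 in dVenus+ and 25.9, 1.03 and 6.00 in dVenus- cells. No group stood apart from its partner. In 6 of 12 FC, 1 of 4 NS and 3 of 3 HC mice the dVenus+ library was higher, with log2 fold changes of 0.47 ± 0.63 (SE), -0.59 ± 1.60 and 1.90 ± 1.73. The highest value, 261, belonged to FC mouse 7, and within the experiment of 4 FC mice the mean level was 89.5 in dVenus+ and 9.87 in dVenus- cells, against 44.1 and 43.9 in the experiment of 6.

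Jak1 is the kinase bound to gp130 on which IL-6 type signaling chiefly depends, and lies at chr4:101151974-101265282. Its level in FC mice was 31.3 to 700 normalized CPM in dVenus+ (median 117) and 34.1 to 222 in dVenus- libraries (median 120). NS mice 18 to 21 had 84.7, 84.7, 106 and 363 in dVenus+ and 68.5, 57.0, 223 and 76.8 in dVenus- cells. HC mice 15 to 17 had 85.5, 36.6 and 188 in dVenus+ and 202, 20.4 and 143 in dVenus- cells. The ranges of both cell types lay over each other at all 3 training histories, and the dVenus+ library was higher in 6 of 12, 3 of 4 and 2 of 3 mice. The log2 fold changes for FC, NS and HC mice were 0.19 ± 0.39 (SE), 0.41 ± 0.99 and -0.22 ± 1.21, the first of these with the smallest SE of any member in any comparison. In the experiment of 2 FC mice the mean levels were 83.7 in dVenus+ and 137 in dVenus- cells, with the dVenus+ library lower in both mice. In the experiments of 4 and 6 FC mice the dVenus+ library was higher in 3 mice each.

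Jak2, the kinase of the receptors for growth hormone, prolactin and erythropoietin that also binds gp130, lies at chr19:29251803-29313095. Its level in FC mice was 0 to 57.4 normalized CPM in dVenus+ (median 3.14) and 0 to 45.6 in dVenus- libraries (median 5.64), with the dVenus+ library higher in 7 of 12 mice. In NS dVenus+ cells 3 of 4 libraries were at 0 and mouse 21 had 0.753, while NS dVenus- cells of mice 18 to 21 had 11.6, 5.38, 0 and 0.295. HC mice 15 to 17 had 6.40, 9.15 and 0 in dVenus+ and 0, 0.207 and 4.92 in dVenus- cells. The values overlapped in all 3 pairs of groups. The log2 fold change was 0.32 ± 0.92 (SE) in FC and 1.41 ± 1.97 in HC mice, and in NS mice Jak2 had too few counts for the fit.

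Tyk2, the third kinase found on gp130 and best known from interferon receptors, lies at chr9:21104068-21131393. Its FC levels spanned 0 to 78.8 normalized CPM (median 17.6) with dVenus and 0 to 59.2 (median 6.63) without. The dVenus+ library was higher in 8 of 12 FC mice and lower in 3, and the log2 fold change was 1.48 ± 0.90 (SE), the highest of the 6 members fitted in FC mice, with a range of 1.08 to 1.88 when 1 mouse at a time was left out. In NS mice 18 to 21 the dVenus+ cells had 55.7, 0.879, 1.95 and 0, and of the dVenus- cells only those of mouse 21 had any, at 13.6. In HC mice 1 library of each cell type was above 0, both of mouse 17, with 136 in dVenus+ and 5.22 in dVenus- cells. Single mice thus held nearly all of its counts outside the FC group, too few for the fits there.

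**Figure D2:**
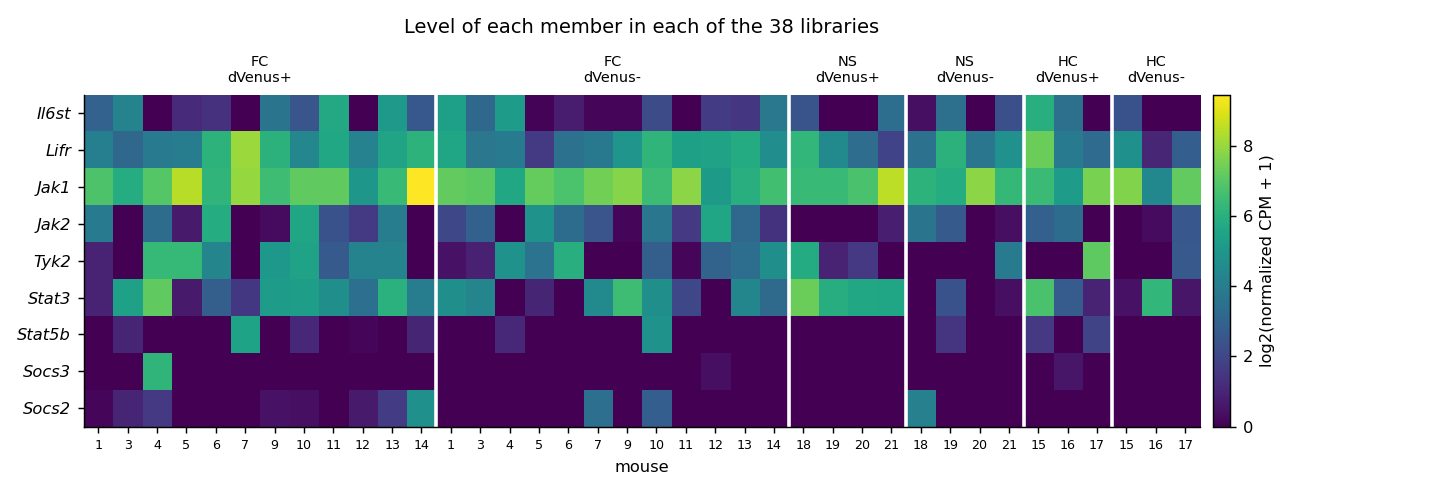
Level of the 9 members in each library, as log2(normalized CPM + 1), with genes in rows and mice in columns by group. Jak1 and Lifr were above 0 in all 38 libraries, Stat3 stood out in the 4 NS dVenus+ libraries, and Stat5b, Socs3 and Socs2 were at 0 in most.

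Stat3, the main transcription factor of the pathway, lies at chr11:100886806-100939594. In NS mice 18 to 21 its level was 161, 57.7, 48.0 and 46.7 normalized CPM in dVenus+ cells (1146, 197, 222 and 186 counts) and 0, 4.27, 0 and 0.295 in dVenus- cells (0, 23, 0 and 4 counts). The 2 groups did not overlap, the lowest dVenus+ library lying at 46.7 and the highest dVenus- library at 4.27. In NS mice 3.52% of the 8187 genes tested had all dVenus+ libraries above all dVenus- libraries, compared with 0.0927% of genes in FC and 9.49% in HC mice, where no member did. The log2 fold change was 6.43 ± 1.80 (SE, 4 mice), between 5.70 and 8.93 with 1 mouse left out at a time. Since this contrast chose the members, the difference is given as a description only.

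In FC mice the level of Stat3 was 0.616 to 141 normalized CPM in dVenus+ (median 19.9) and 0 to 91.5 in dVenus- libraries (median 13.7). All 12 dVenus+ libraries had at least 1 count of Stat3 and 3 of the 12 dVenus- libraries were at 0, but the 2 ranges overlapped nearly throughout. The dVenus+ library was higher in 8 of 12 mice and the log2 fold change was 0.98 ± 0.92 (SE). By experiment, mean levels in dVenus+ and dVenus- cells were 31.2 and 24.7 with 6 mice, 37.3 and 5.79 with 4 mice and 21.2 and 22.0 with 2 mice. In HC mice 15 to 17 Stat3 was at 107, 5.78 and 0.849 in dVenus+ and at 0.369, 74.8 and 0.492 in dVenus- cells. One high library stood in each HC group, from different mice, and the log2 fold change of 1.19 ± 3.59 (SE) turned to -2.75 without mouse 15.

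Markers of other cells moved between the same NS libraries. The summed level of 11 microglial genes was 82.9, 417, 1605 and 1022 in dVenus+ cells of NS mice 18 to 21 and 19.1, 29.7, 7.04 and 494 in their dVenus- cells. The summed level of 8 granule cell genes was 168, 286, 491 and 240 in dVenus+ and 1167, 861, 1112 and 1193 in dVenus- cells. Tdo2, a gene of this list, had a median of only 0.0984 normalized CPM over the 38 libraries. It was at 0 in every NS dVenus+ and every HC dVenus- library. Mouse 18, with the most Stat3, had the lowest microglial sum of the 4 NS dVenus+ libraries. The summed astrocyte level was 990 to 3114 in dVenus+ and 446 to 2913 in dVenus- libraries. The part of other cells in the Stat3 difference was not tested.

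**Figure D3:**
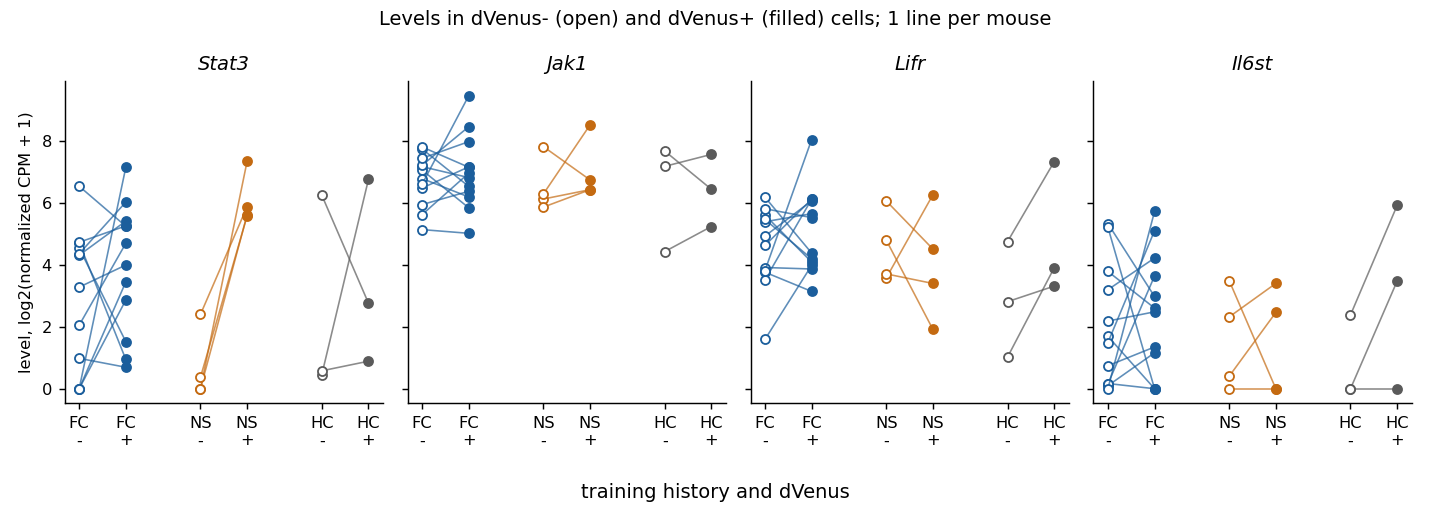
Level of Stat3, Jak1, Lifr and Il6st as log2(normalized CPM + 1) in dVenus- (open) and dVenus+ libraries (filled), with 1 line per mouse, in FC, NS and HC mice. All 4 NS lines of Stat3 run upward and the groups are apart there, while FC and HC lines cross and those of Jak1, Lifr and Il6st run both ways.

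Stat5b, the factor that carries growth hormone signals in many tissues, lies at chr11:100780731-100859004 on the chromosome of Stat3. It was at 0 in 28 of the 38 libraries and had 10 counts or more in 5, namely FC dVenus+ mice 7 and 10, FC dVenus- mice 4 and 10 and HC dVenus+ mouse 17. The 2 highest levels were 43.4 normalized CPM in FC dVenus+ mouse 7 and 28.3 in FC dVenus- mouse 10. High libraries thus occurred in both cell types, and the counts were too few for the fits at all 3 training histories.

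Socs3, the inhibitor that binds gp130 and blocks its kinases, lies at chr11:117966079-117970336. Of its 438 counts 436 came from FC dVenus+ mouse 4, at 72.0 normalized CPM, and the remaining libraries with any were FC dVenus- mouse 12 and HC dVenus+ mouse 16, with 1 count each. Stat3 was also at its FC maximum of 141 in that dVenus+ library. The summed level of microglial markers there was 667, with 10 of 11 genes at 10 counts or more, rank 9 among the 38 libraries. The oligodendrocyte sum was 1579 (rank 10), with Mbp at 1515 against a median of 458 over all libraries, and the astrocyte sum was 372 (rank 23), with Gfap at 149 against 20.4. The granule cell sum of 236 had rank 35, and the interneuron sum of 67.7 rank 28, while Pdgfra, Cspg4, Cldn5, Pecam1 and Flt1 were at 0. Socs3 had 0 counts in all 8 NS libraries. The part of other cells in this value was not tested.

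Socs2, an inhibitor of growth hormone and Stat5 signaling with known roles in neurons, lies at chr10:95383903-95417321. Of the FC dVenus+ libraries 8 had at least 1 count of Socs2, of the FC dVenus- libraries 2, and 3 of those 8 and both of the others had 10 counts or more. The FC levels ran to 25.7 normalized CPM in dVenus+ (median 0.358) and to 10.0 in dVenus- libraries (median 0). Outside FC mice, 1 library had counts, NS dVenus- mouse 18 at 16.2. The highest counts, 244 and 127, were in FC dVenus- mice 7 and 10, so neither cell type held Socs2 alone.

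Of the 9 members, 6 had enough counts for the fit of dVenus+ against dVenus- cells in FC mice, 4 in NS and 5 in HC mice. As the members were proposed from this contrast, their fold changes are shown with their SE and without a call.

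**Figure D4:**
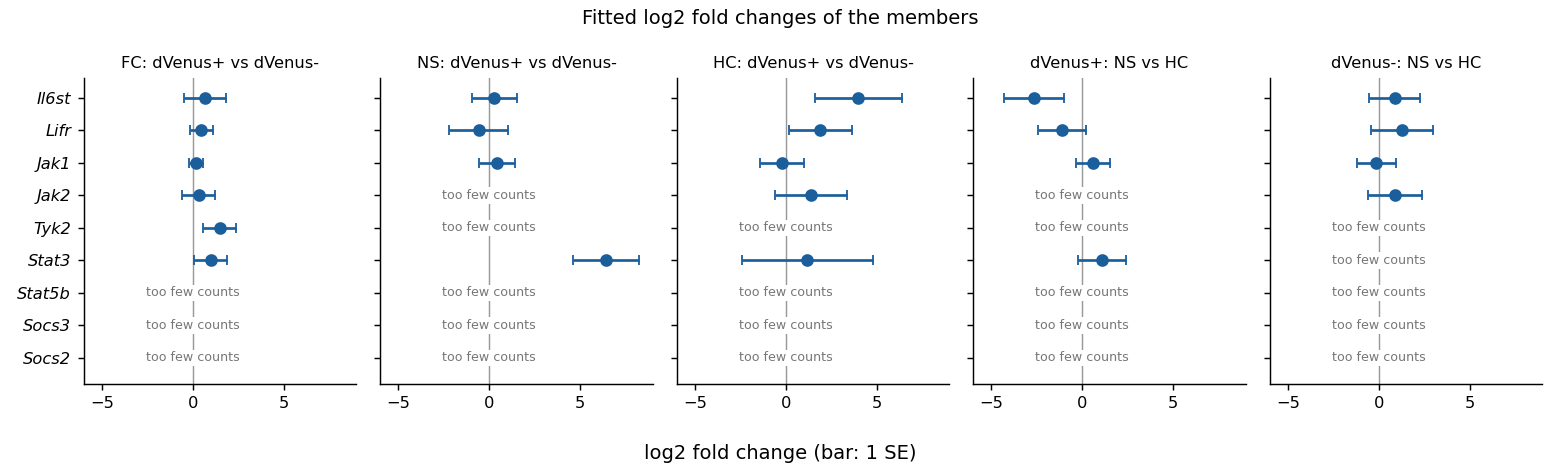
Fitted log2 fold change of each member with a bar of 1 SE, for dVenus+ against dVenus- cells in FC, NS and HC mice and for NS against HC mice within each cell type. Stat3 in NS mice, at 6.43, lies farthest from 0, and members with too few counts for a fit are marked.

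Members were also counted together, since the receptor complex for leukemia inhibitory factor needs both gp130 and the chain encoded by Lifr. Il6st and Lifr both had 10 counts or more in 21 of 38 libraries, which are those with 10 counts of Il6st. With Jak1 and Stat3 added, 17 of 38 libraries held all 4, namely 7 of 12 FC dVenus+, 5 of 12 FC dVenus-, 2 of 4 NS dVenus+, 1 of 4 NS dVenus-, 2 of 3 HC dVenus+ and 0 of 3 HC dVenus- libraries. All 3 Janus kinases were at 10 counts or more in 13 libraries. These were 6 of 12 FC dVenus+, 6 of 12 FC dVenus-, 0 of 3 HC dVenus+ and 1 of 3 HC dVenus- libraries, with 0 of 4 in each NS group. Training and experiment cannot be told apart between FC and the other mice in these counts. In the NS dVenus+ libraries, where Stat3 was high, Il6st was at 0 in 2 of 4 and Jak2 in 3 of 4.

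Across the 38 libraries the 6 more abundant members moved together only weakly. For likeness between genes, counts were scaled by the reads on genes alone, without the TMM factors. The highest Spearman coefficient of log2 CPM scaled in this way was 0.44 among the 15 pairs, between Il6st and Lifr. It was followed by 0.29 for Jak2 with Tyk2 and 0.28 for Lifr with Stat3, and Jak1 with Stat3 had -0.03. These are descriptions over libraries that share mice, depth and experiment. Of 11263 genes, those most like Stat3 over the 38 libraries were Utrn, which encodes utrophin (0.66), Atad5 (0.64), Plcb4, a phospholipase C (0.63), Usf1, a transcription factor (0.62), and Tor1aip1 (0.62), and the least like were Atp5j2, a subunit of mitochondrial ATP synthase (-0.52), and Taldo1, an enzyme of the pentose phosphate pathway (-0.50). The genes most like Il6st were Itgb1, the integrin beta 1 chain (0.70), Ugdh (0.66) and Trmt44 (0.63). Plcb4 had a median of 18.5 normalized CPM in the NS dVenus+ and 2.25 in the NS dVenus- libraries.

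Whether exposure to the chamber went with other levels of the members was tested in each cell type, NS against HC mice of the same experiment. In dVenus+ cells the members fitted were Il6st, with a log2 fold change of -2.68 ± 1.64 (SE, adjusted p = 0.681, edgeR quasi-likelihood test), Lifr with -1.12 ± 1.34 (0.875), Jak1 with 0.59 ± 0.94 (0.924) and Stat3 with 1.07 ± 1.31 (0.880). In dVenus- cells Il6st gave 0.86 ± 1.41 (adjusted p = 0.943), Lifr 1.27 ± 1.70 (0.929), Jak1 -0.13 ± 1.08 (0.990) and Jak2 0.87 ± 1.48 (0.948). None of these passed the threshold for a call, an adjusted p under 0.05 with an absolute log2 fold change over 1, nor did any of the 8706 genes tested in dVenus+ (0% called) or of the 8547 in dVenus- cells (0% called). At an unadjusted p under 0.05 there were 773 and 756 genes and 0 members in each, and the Wald test of DESeq2 called 110 and 144 genes and 0 members. Arc, which reports the activity that defines dVenus+ cells, differed by 0.04 ± 0.75 between NS and HC dVenus+ cells (adjusted p = 0.996).

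For Stat3 the level in all 4 NS dVenus+ libraries, 46.7 to 161, lay within the span of the 3 HC dVenus+ libraries, 0.849 to 107, except in mouse 18. Without HC mouse 15 the log2 fold change of Stat3 was 4.86, and without any other mouse it lay between 0.43 and 1.31. In NS dVenus- cells Stat3 lay between 0 and 4.27 and in HC dVenus- cells at 0.369, 0.492 and 74.8, too few counts for the fit. Lifr changed sign without HC mouse 15, to 1.28, and Jak1 without NS mouse 21, to -0.21. With SEs between 0.94 and 1.70 on the log2 scale, differences of several fold and much larger ones may go uncalled at 4 and 3 mice.

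The rest of the pathway was represented by 68 genes in 8 lists, from ligands to target genes. In FC mice 33 of them had enough counts to be tested in dVenus+ against dVenus- cells and 0 were called, against 4.35% of all genes tested. At an unadjusted p under 0.05 there were 3 higher and 6 lower in dVenus+ cells, while 17.8% of all genes tested were under that value. DESeq2 called 8, of which 1, Vegfa, was higher and 7 were lower in dVenus+ cells, among them Il11ra1, Stat2, Socs7, Ifngr2, Epor and Mcl1. Of all 9709 genes tested, DESeq2 called 1651, with 559 higher and 1092 lower in dVenus+ cells. With genes of 5 counts in 10 of 38 libraries tested instead, 1 of 41 was called, the adaptor Gab1, lower in dVenus+ cells, which had mean levels of 0.00679 and 0.825 normalized CPM in FC dVenus+ and dVenus- libraries. The median log2 fold change of the 33 was 0.07, that of all 9709 genes -0.11. In NS mice 0 of 31 and in HC mice 0 of 27 were called by edgeR, against 0.0489% and 0% of all genes tested. At an unadjusted p under 0.05 there were 2 and 3, where 8.67% and 7.01% of all genes were under that value. DESeq2 called 1 lower in NS mice, and 2 higher and 3 lower in HC mice, against 671 of all 8187 and 625 of all 7588 genes. The median log2 fold changes of the pathway genes were 0.30 and 1.40, against 0.08 and 0.02 over all genes tested.

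Among the target genes, Vegfa, the vascular endothelial growth factor, had the smallest p-value of the 33 tested in FC mice. Its level in FC mice was 13.4 ± 21.0 normalized CPM in dVenus+ (SD, n = 12 libraries, median 3.78) and 1.72 ± 1.91 in dVenus- libraries (median 1.01). In 10 of 12 FC, 4 of 4 NS and 1 of 3 HC mice the dVenus+ library had more Vegfa. The log2 fold change in FC mice was 2.44 ± 0.75 (SE, adjusted p = 0.0550, edgeR), which was not called. Vegfa passed the threshold by DESeq2 (2.34, adjusted p = 0.0162), without the mouse as block (2.74, 0.0259) and without mouse 10 (2.84, 0.0407). Under every other alternative, including leaving out any other mouse, Vegfa was not called in FC mice. In NS mice its log2 fold change was 3.16 ± 1.74 (adjusted p = 0.609, edgeR). The 2 most abundant target genes, Bcl2l1, which protects against apoptosis, and Hif1a, the oxygen-regulated factor, had log2 fold changes of -0.56 ± 0.84 and 0.50 ± 0.57 in FC mice (adjusted p = 0.800 and 0.720, edgeR). Of the 17 target genes 11 were tested in FC mice, 6 with a fold change above 0, with a median of 0.07.

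Most ligands of the family were scarcely found in these cells. Il6, Clcf1, Osm and Il27 never reached 10 counts in a library, and 2 of 10 ligands were tested. Il11, a cytokine that signals through gp130, had a mean of 3.65 ± 3.40 normalized CPM in FC dVenus+ and 1.71 ± 1.31 in FC dVenus- libraries (SD, n = 12 each), and a log2 fold change of 1.04 ± 0.48 (SE, adjusted p = 0.247, edgeR).

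Of the receptor chains that give gp130 its ligands, Il11ra1 was at 3.05 ± 5.08 normalized CPM in FC dVenus+ and 11.9 ± 9.62 in FC dVenus- libraries (SD, n = 12 each), with a log2 fold change of -2.06 ± 0.89 (SE, adjusted p = 0.206, edgeR), and DESeq2 called it lower (-4.66, adjusted p = 0.00188). Cntfr, the chain for ciliary neurotrophic factor, had too few counts in FC mice and gave 3.23 ± 1.41 in NS mice (adjusted p = 0.547). Among other receptors that use Janus kinases, the interferon receptor chain Ifnar1 was present with 10 counts or more in 38 of 38 libraries, at 148 ± 81.1 in FC dVenus+ and 136 ± 83.1 in FC dVenus- libraries and a log2 fold change of 0.14 ± 0.38 (adjusted p = 0.893). Ifngr2, a chain of the interferon gamma receptor, had -2.13 ± 0.80 (adjusted p = 0.132), and DESeq2 called it lower (-2.44, adjusted p = 0.00254). None of these passed the threshold by edgeR.

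Stat2, a factor of the interferon response, had a log2 fold change of -2.91 in FC mice (adjusted p = 0.316, edgeR), and DESeq2 called it lower (-4.03, adjusted p = 0.00297). The level of Stat2 was 7.91 ± 15.8 normalized CPM in FC dVenus+ and 25.1 ± 40.4 in FC dVenus- libraries (SD, n = 12 each). In 2 of 12 FC mice Stat2 was higher in dVenus+ cells. In NS mice its log2 fold change was 3.21 ± 1.75 (SE, adjusted p = 0.603, edgeR), with the dVenus+ library higher in 2 of 4 mice. The inhibitors of the SOCS family found most were Socs5, at a log2 fold change of 0.28 ± 0.67 (adjusted p = 0.881), and Socs7, at -1.59 ± 0.63 (adjusted p = 0.162), which DESeq2 called lower (-1.80, adjusted p = 0.00616). Socs5 had 10 counts or more in 34 and Socs7 in 33 of 38 libraries, against 1 for Socs3 and 6 for Socs2.

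The PIAS proteins, which hold STAT factors back in the nucleus, and the phosphatases were among the more abundant genes of the pathway, and 6 of 8 were tested in FC mice. Pias2 had a log2 fold change of 0.16 ± 0.76 (SE), Pias4 of 0.89 ± 0.80 and Ptpn11, the phosphatase SHP2 that binds gp130, of 0.59 ± 0.57 (adjusted p = 0.947, 0.621 and 0.652, edgeR). The adaptors Grb2 and Sos1, which pass the signal on to Ras, had 0.35 ± 0.45 and -0.92 ± 0.84 (adjusted p = 0.758 and 0.624). Ptpn11 and Grb2 were found with 10 counts or more in 38 of 38 libraries each.

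**Figure D5:**
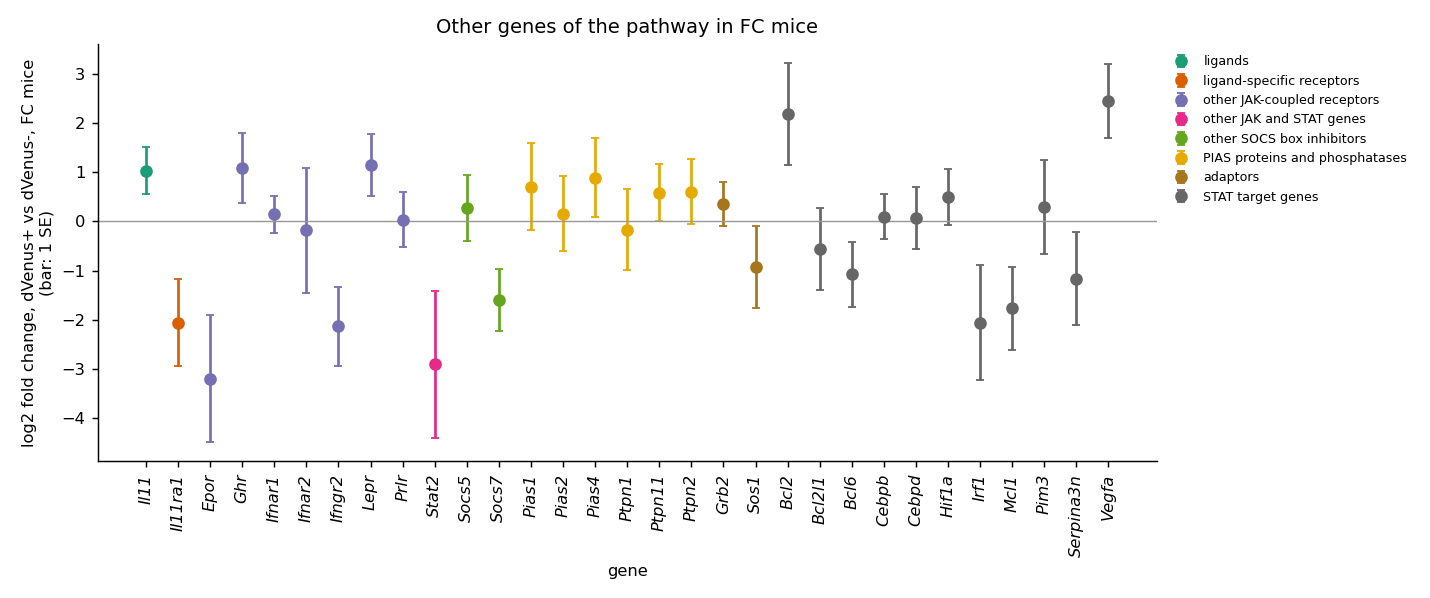
Log2 fold change of 31 other pathway genes tested in FC mice, dVenus+ against dVenus- cells, with a bar of 1 SE, colored by list. Epor at -3.20 and Stat2 at -2.91 lie farthest below 0 and Vegfa at 2.44 farthest above, and no gene passed the threshold by edgeR.

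Between NS and HC mice 0 of 34 pathway genes were called in dVenus+ and 0 of 32 in dVenus- cells by edgeR, and 0 in each by DESeq2. In dVenus+ cells 1 was higher and 3 lower in NS mice at an unadjusted p under 0.05, in dVenus- cells 3 were higher and 2 lower, where 8.88% and 8.85% of all genes tested were under that value. In dVenus+ cells Hif1a had a log2 fold change of 3.43 ± 1.47 (SE, adjusted p = 0.508, edgeR) and Ptpn11 of -2.69 ± 1.10 (adjusted p = 0.492). The median log2 fold change of the pathway genes tested was -0.41 in dVenus+ and 0.17 in dVenus- cells, against 0.07 and 0.12 over all genes tested.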

How the data were processed

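RNA of 10 dVenus+ and 10 dVenus- cells per mouse had been amplified with Smart-seq2 and sequenced as single reads of 50 bases. The authors deposited counts, the number of uniquely aligned reads per gene and library without normalization. Per the submitters' processing notes, reads were aligned to mm10 with TopHat2 2.0.13 and counted with HTSeq 0.6.0, on NCBI transcripts according to the methods of the study. The 5 entries that name no gene were left out, and reads outside genes came to 16.4% to 59.7% of uniquely aligned reads. The kit does not mark strand, so reads in overlaps of genes, such as the 3′ end of Jak1 with Raver2 or Socs2 with Gm33230, cannot be assigned. A second deposited table of counts, of 11802 genes in all libraries, was not used. For 10 libraries of the NS and HC mice the description label points to a different library, and titles were used.

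Counts were tested with the quasi-likelihood test of edgeR 4.0.16 in R 4.3.3 (two-sided, TMM, legacy = FALSE), with the mouse as block, in separate fits for FC, NS and HC mice, and between NS and HC mice within each cell type. Tested were genes reaching 10 counts in 12 (FC), 4 (NS) or 3 libraries (HC and NS against HC), and p-values were adjusted after Benjamini-Hochberg over all of them. A call required an adjusted p under 0.05 and an absolute log2 fold change over 1. The fits were tested on simulated data, in which fewer planted changes were recovered by each of the NS, HC and NS against HC fits than by that of FC mice. Each of these smaller fits missed most of the planted changes, so the absence of a call there says little. The fit of FC mice missed most of the smaller planted changes too, so a gene not called there may still differ. Mice are the replicates. The pairing comes from the animal. As a check, the deviations of both libraries of a mouse from their group means had a median correlation of 0.0524 in FC (2 of 12 pairs over 0.1), -0.0163 in NS (1 of 4) and 0.00354 in HC mice (0 of 3). Levels per kb use the union of GENCODE M21 exons, and positions and promoters are from RefSeq, on the same build.

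The members, the 68 pathway genes, the 42 marker genes and the tests were chosen with earlier results of these data known. The genes named are the 9 members, pathway genes called in any comparison, the gene with the smallest p-value in FC mice and the 2 with the highest mean level of each list, and Arc. Also named are the genes most and least like Stat3 (5 and 2) and most like Il6st (3). Likeness was the Spearman correlation of log2 CPM without TMM factors, among genes reaching 10 counts in 10 libraries. Some genes of the lists are counted but not reported here by name. Epor, Mcl1, Gab1, the markers, and the libraries singled out were chosen after their values were seen. The alternatives were the size factors of DESeq2 1.42.0, 2 other count filters, DESeq2's Wald test, no block, subsets of the FC mice, leaving out each mouse, other scalings of the levels and, chosen after seeing the data, the older quasi-likelihood method of edgeR.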

Additional observations from a re-analysis of the deposited data

Results flagged for a closer look

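In groups of 4 libraries, 9 of the 18 member groups had 1 library far from the other 3. There the ratio of its gap to the range of the group exceeded the 95% critical value of Dixon's test. No rate by chance is given, because many of the values are 0 and groups with all libraries at 0 could not be flagged. All are NS libraries, since groups of 3 and 12 were not tested, and each is the highest of its group, in normalized CPM. In dVenus+ cells these were Stat3 in mouse 18 at 161, Tyk2 in mouse 18 at 55.7, Jak1 in mouse 21 at 363 and Jak2 in mouse 21 at 0.753. In dVenus- cells they were Jak1 in mouse 20 at 223, Socs2 in mouse 18 at 16.2, Tyk2 in mouse 21 at 13.6, Stat3 in mouse 19 at 4.27 and Stat5b in mouse 19 at 1.67. For Jak2, Stat5b, Socs2 and the dVenus- value of Tyk2, all other libraries of the group were at 0. The ratio is then 1 whatever the remaining value, so these flags carry no information on its size. The 3 other NS dVenus+ libraries of Stat3, at 46.7 to 57.7, stayed above the highest NS dVenus- library.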

How the results depend on the processing

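For the members, 283 of 299 log2 fold changes under the alternatives lay within 1 SE of the reported value and 17 had the opposite sign, and for the named pathway genes 860 of 911 lay within 1 SE and 41 had the opposite sign. 0 of those of opposite sign were called. Levels by group stayed within 1 SD in 108 of 108 alternatives. This limit is wide, since the SD between libraries was often larger than the mean, and groups with all libraries at 0 could not move. The number of genes called depended on the test. In FC mice 422 genes were called, and 1651 by DESeq2's Wald test, 137 by the older quasi-likelihood method, 15 and 12 in the experiments of 6 and 4 mice alone and 168 without that of 2 mice. In NS mice the 4 calls became 11 with DESeq2's size factors, 1 without a count filter, 2 with 5 counts in 10 of 38 libraries, 671 by DESeq2 and 0 by the older method. In HC mice 0 became 625 by DESeq2 and 2 by the older method, and between NS and HC mice DESeq2 called 110 genes in dVenus+ and 144 in dVenus- cells. Of the pathway genes in FC mice, 0 became 1 with 5 counts in 10 of 38 libraries (Gab1) and 8 by DESeq2, in NS mice 1 and in HC mice 5 by DESeq2. The cause of these differences was not tested. Leaving out 1 mouse at a time gave 292 to 405 genes called in FC, 0 to 2 in NS and 0 in HC mice, 0 in dVenus+ and 0 to 3 in dVenus- cells between NS and HC mice, 0 to 1 pathway genes in FC mice and 0 elsewhere.

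Without the mouse as replicate block, calls numbered 487 for FC, 13 for NS and 0 for HC mice, with 1 pathway gene in FC mice (Vegfa). The blocked fit was kept because both libraries of a pair come from 1 animal. No paired analysis was possible between NS and HC mice because they share no animal. Depth and number limit what can be seen: Stat5b, Socs3 and Socs2 had too few counts for the fits reported, a count of 0 does not show that a gene was absent from a cell, and NS and HC groups of 4 and 3 mice leave SEs over 0.9 on the log2 scale.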

Other observations

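Markers of further cell types were present in the same libraries. The summed level of 6 oligodendrocyte genes was 138 to 3166 normalized CPM in FC dVenus+ and 193 to 4627 in FC dVenus- libraries, 1153 to 2277 in NS dVenus+ and 110 to 3632 in NS dVenus- libraries, and 869 to 2106 in HC dVenus+ and 219 to 2866 in HC dVenus- libraries. The sum of 7 astrocyte genes was 28.5 to 1717 in FC dVenus+ and 120 to 2241 in FC dVenus- libraries, and 1344 to 1617 in HC dVenus+ against 308 to 505 in HC dVenus- libraries. The sum of 11 microglial genes was 36.2 to 2043 in FC dVenus+, 1.16 to 690 in FC dVenus-, 405 to 1260 in HC dVenus+ and 26.8 to 514 in HC dVenus- libraries. The 8 granule cell genes summed to 258 to 681 in HC dVenus+ and 710 to 1859 in HC dVenus- libraries. The 5 interneuron genes summed to 15.1 to 395 in FC dVenus+ and 30.8 to 2241 in FC dVenus- libraries, and to 152 to 368 in NS dVenus+ and 87.9 to 1275 in NS dVenus- libraries. The 2 genes of oligodendrocyte precursors and the 3 endothelial genes had medians of 0.816 or less and of 12.0 or less in all 6 groups. These sums have no length scaling and were not tested.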
